A study of Mus musculus with 6 samples.

Results

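The genes described here encode proteins that coat lipid droplets, form them, or release fatty acids from them. They are the rows of the deposited gene table named Cidea, Cidec, Fitm1, Fitm2, Plin2, Plin4, Plin5, Pnpla2, Lipe and G0s2, 10 of 56748 genes. RNA was sequenced from whole hearts of mice at postnatal day 1, in 2 groups of 3 libraries. The FF group holds control hearts labelled Flox with the genotype FF, and the cKO group holds hearts of mice labelled with a cardiac-specific knockout of Kdm5b, a histone H3 lysine 4 demethylase. The sources used here name no Cre driver and do not say whether each library came from a separate animal, so a p-value reflects only how far these samples spread, which may be technical. The title of the study sets these hearts in a screen of histone modulators for cell cycle gene expression in cardiomyocytes. The 10 genes were chosen by function and by their FPKM difference between these same 2 groups, which was already known. Their values are therefore a description, and the calls given for them are not independent evidence of a difference.

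Lipid droplets store neutral lipid, mainly triacylglycerol and sterol ester, under a single layer of phospholipid. Droplets bud from the endoplasmic reticulum with the help of FIT proteins, grow by lipid transfer through CIDE proteins, and are shielded by perilipins. The lipase ATGL, encoded by Pnpla2, starts the breakdown of triacylglycerol and is held back by G0S2, and hormone-sensitive lipase, encoded by Lipe, acts next. The heart turns from glucose and lactate to fatty acids as its main fuel around birth, and droplets then buffer the supply of fatty acids to mitochondria and to nuclear receptors of the PPAR family.

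Libraries held 15658893 to 20339926 reads assigned to genes. FF replicate 3 stood apart, with a correlation across genes of 0.880 to 0.909 with the other libraries, against 0.954 to 0.984 among the other 5. The 11 thymocyte markers summed to 201 FPKM in it and to 0.395 to 1.46 FPKM elsewhere. Other genes differed there too. The lipase gene Lpl was at 51.6 FPKM in it and 141 to 183 FPKM elsewhere, and the fibroblast marker Col1a1 at 261 and 87.0 to 150 FPKM. What sets this library apart was not tested. The differences of the 9 genes tested of the 10 are therefore also given without FF replicate 3, as are most counts of calls. Medians of lists come from all 6 libraries unless stated. FPKM is a fragment count scaled by gene length and library size, so levels of different genes can be compared on it. The library size in these values was not the plain sum of assigned reads. It ran from 0.960 times that sum in FF replicate 1 to 1.07 times in cKO replicate 3. Genes of the mitochondrial genome took 18.0% to 19.0% of FF and 12.8% to 15.7% of cKO reads, and with a rescaling that leaves them and haemoglobin out the Cidea and Fitm1 differences were -1.25 and -1.09. Kdm5b itself was at 3.19 to 3.92 FPKM in FF and 2.75 to 3.03 FPKM in cKO libraries (exact two-sided permutation p = 0.1, the smallest that 3 against 3 allows). Its value covers the whole gene and every cell type of the heart.

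Cidea and Fitm1 fell in cKO hearts, to less than 0.5 times the FF level, and Plin5 stood lower by a like ratio without passing the threshold. Lipe, Plin4 and Pnpla2 stood higher, each short of the threshold. Plin2, Fitm2 and G0s2 had smaller differences toward lower values. In limma on log2(FPKM + 1), with Benjamini-Hochberg adjustment over the 12678 genes with a mean of at least 1 FPKM, 2 of the 9 genes tested were lower past an adjusted p of 0.05 and 0 were higher, where 0.0947% of all genes tested were lower, 0.071% higher and 0.166% either. In 4 genes all cKO values were below all FF values and in 2 above, where 14.5% and 13.5% of all genes tested were so placed, and without FF replicate 3 in 4 and 3, where the shares were 27% and 25%. Of the 9 genes, 5 had an unadjusted limma p under 0.05, as did 17.9% of all genes tested, a share to set beside each such count below. Without FF replicate 3, 3 were lower (Cidea, Fitm1, Plin5) and 2 higher (Pnpla2, Lipe), where 6.26% of all genes tested were lower and 5.73% higher. Nothing is read from these counts, since the same contrast led to the choice of genes. The median difference of the 9 genes was -0.25, beside 0.01 for all genes tested. Cidec was under the minimum.

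Leaving out any of the other 5 libraries left 0 of the 12678 genes past the threshold in limma, with 1268 to 2041 genes at an unadjusted p under 0.05. Neither Cidea nor Fitm1 is called there, while their differences stayed between -1.34 and -1.07. With all libraries 9 genes were higher and 12 lower, and after median-ratio scaling 9 were higher and 6 lower. In bulk RNA a smaller number of cells of a type and less RNA per cell cannot be told apart, which holds for every value below.

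**Figure D1:**
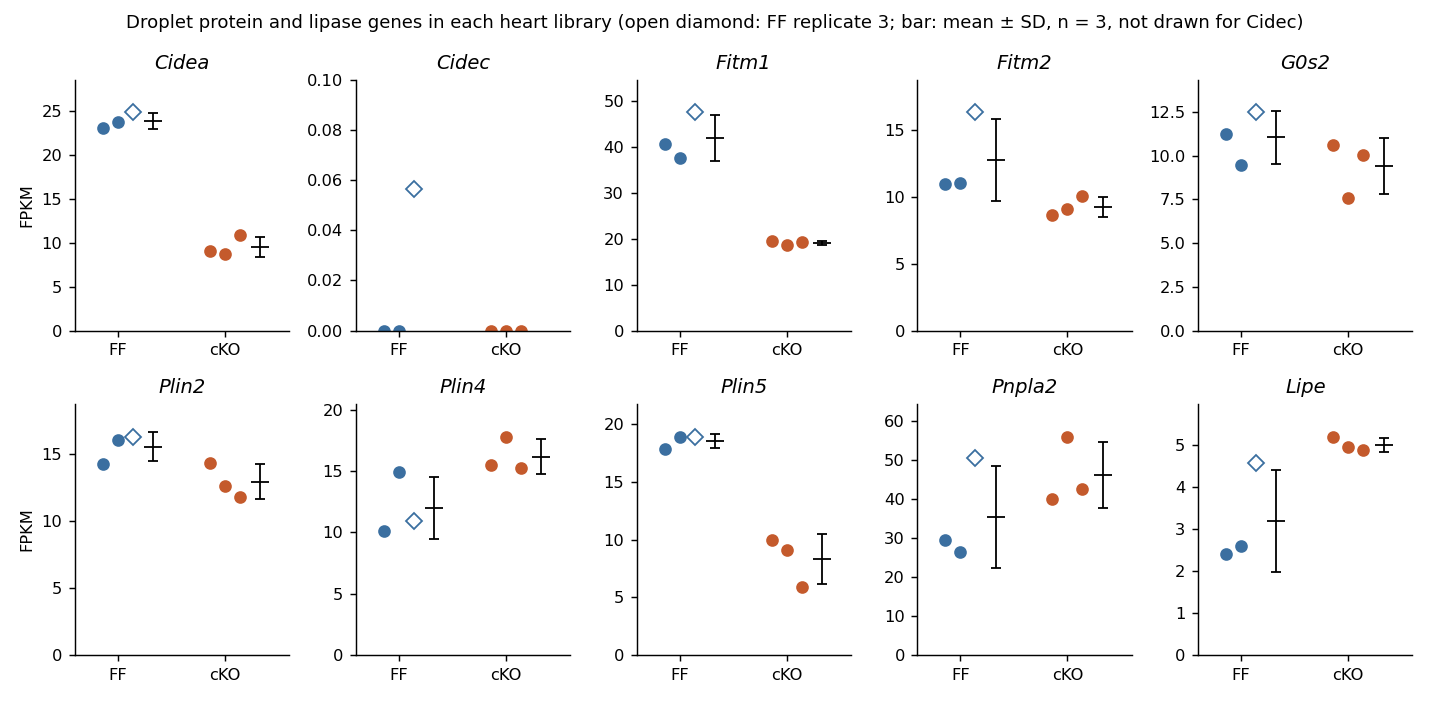
FPKM (vertical axes, from 0, each with its own scale) of the 10 genes in the 3 FF and 3 cKO libraries, as points, with the group mean ± SD beside them except for Cidec. All cKO points of Cidea, Fitm1 and Plin5 lie far below the FF points, and the FF replicate 3 diamond of Pnpla2, at 50.4 FPKM, lies within the cKO range of 40.0 to 56.0 FPKM.

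The FIT proteins, which bind the lipids that bud from the endoplasmic reticulum, are encoded by a muscle-enriched gene, Fitm1, and a broadly expressed gene, Fitm2. Fitm1 (ENSMUSG00000022215, chromosome 14, 55813074 to 55814411, plus strand, in the coordinates of the deposited table, whose header names no build) stood at 40.6, 37.6 and 47.5 FPKM in FF replicates 1, 2 and 3 and at 19.4, 18.7 and 19.3 FPKM in cKO replicates 1, 2 and 3. The 3 cKO libraries lay within 1 FPKM of each other, and the groups did not overlap. The mean fell from 41.9 ± 5.05 to 19.1 ± 0.396 FPKM (SD, n = 3 each), a drop of 54.4%, with a log2 difference of -1.09 (95% interval -1.39 to -0.78, limma adjusted p = 0.0497). Without FF replicate 3, the highest of the 6 libraries, the log2 difference was -0.995 (limma adjusted p = 0.0090). Among other scalings, priors, pseudocounts and minimums, the call ended with median-ratio scaling, a robust prior, pseudocounts of 0.5 and 0.1 or no minimum on FPKM (limma adjusted p = 0.0501, 0.0532, 0.0523, 0.0560 and 0.102), and over all alternatives the adjusted p ran from 0.00032 to 0.277. The span of Fitm1 overlaps 375 bases of Gm15932, a long noncoding RNA on the opposite strand, which went the other way, from 1.36 ± 0.608 to 2.40 ± 0.428 FPKM (SD, n = 3 each).

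Fitm2 (ENSMUSG00000048486, chromosome 2, 163308299 to 163314549, minus strand) was less abundant and nearer between the groups. It stood at 10.97, 11.02 and 16.3 FPKM in FF and at 8.64, 9.04 and 10.1 FPKM in cKO replicates 1 to 3. The groups did not overlap, though cKO replicate 3 came within 1 FPKM of the lower FF libraries, and FF replicate 3 stood above all others. The log2 difference of -0.40 (95% interval -0.82 to 0.01) had a limma adjusted p = 0.294 and was -0.23 without FF replicate 3. The ratio of Fitm1 to Fitm2 within a library was 3.70, 3.41 and 2.91 in FF and 2.24, 2.06 and 1.91 in cKO replicates 1 to 3. Every cKO library thus held less Fitm1 per Fitm2 than any FF library, and this did not rest on FF replicate 3, which had the lowest FF ratio.

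The CIDE proteins sit at contacts between droplets and move lipid from the smaller to the larger. Cidea, best known from brown fat, was the CIDE gene of these hearts. It stood at 23.1, 23.8 and 24.9 FPKM in FF and at 9.04, 8.71 and 10.9 FPKM in cKO replicates 1 to 3, from 192 to 531 reads per library (ENSMUSG00000024526, chromosome 18, 67476674 to 67500855, plus strand). The FF values lay close together, FF replicate 3 among them, and the highest cKO value was far below the lowest FF value. The mean fell by 60.1%, from 23.9 ± 0.912 to 9.54 ± 1.16 FPKM (SD, n = 3 each), with a log2 difference of -1.25 (95% interval -1.55 to -0.95, limma adjusted p = 0.0338) and of -1.22 without FF replicate 3 (limma adjusted p = 0.0116). Among the same kinds of setting, the call ended with no minimum on FPKM (limma adjusted p = 0.0758), and over all alternatives the adjusted p ran from 0.00032 to 0.258.

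Cidec, which drives the large single droplet of white fat cells, had 2 reads in FF replicate 3 and 0 reads in the other 5 libraries (ENSMUSG00000030278, chromosome 6, 113401595 to 113412721, minus strand). A count of 0 allows up to 3 reads, which here would be 0.0745 to 0.101 FPKM, a limit that covers counting error only. Cideb, the CIDE gene of liver and gut, was at 0.105 to 0.433 FPKM. Cidea therefore made up 98.8% to 99.4% of the summed CIDE FPKM in FF libraries, against 95.7% to 98.5% in cKO. The sum itself followed Cidea, from a mean of 24.2 ± 0.854 to one of 9.86 ± 1.28 FPKM (SD, n = 3 each).

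**Figure D2:**
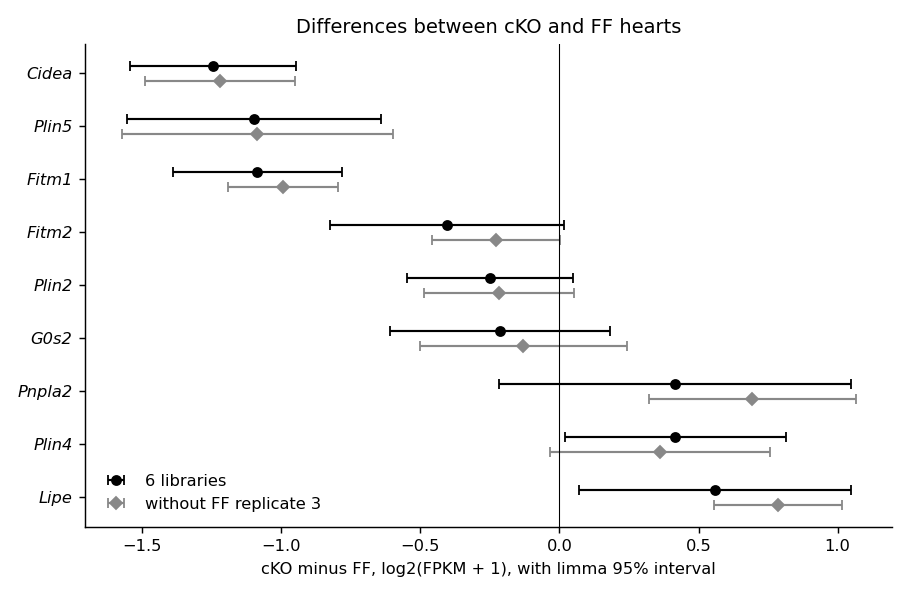
Log2 difference, cKO minus FF, of the 9 genes tested (horizontal axis, log2(FPKM + 1)) with its limma 95% interval, for all 6 libraries (circles) and without FF replicate 3 (diamonds). Cidea, Plin5 and Fitm1 lie at -1.25 to -0.995 in both fits, while Pnpla2 moves from 0.42 to 0.69 and Lipe from 0.56 to 0.78.

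The perilipins coat droplets and set how lipases reach them. Plin5, the perilipin of oxidative tissue that tethers droplets to mitochondria, stood at 17.9, 18.9 and 18.8 FPKM in FF and at 9.996, 9.07 and 5.87 FPKM in cKO replicates 1 to 3 (ENSMUSG00000011305, chromosome 17, 56418601 to 56424596, minus strand). The FF libraries were alike, cKO replicate 3 was the lowest, and the groups did not overlap. The means were 18.5 ± 0.578 and 8.31 ± 2.16 FPKM (SD, n = 3 each), a ratio of 0.448, with a log2 difference of -1.10 (95% interval -1.55 to -0.64). It missed the threshold with 6 libraries (limma adjusted p = 0.0690). With FF replicate 3 left out it passed, at a difference of -1.09 (limma adjusted p = 0.0283).

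Plin4, which coats nascent droplets and is abundant in fat and muscle, lies next to Plin5 on the same strand, with 1797 bases between them in the deposited coordinates (ENSMUSG00000002831, chromosome 17, 56407591 to 56416803). It differed in the opposite direction, at 10.2, 14.9 and 10.9 FPKM in FF and 15.5, 17.8 and 15.2 FPKM in cKO replicates 1 to 3. All cKO values were above all FF values, though FF replicate 2 came within 1 FPKM of cKO replicate 3. The log2 difference was 0.42 (95% interval 0.02 to 0.82, limma adjusted p = 0.263), and 0.36 without FF replicate 3 (limma adjusted p = 0.176). Plin2, the perilipin of most cell types, whose protein is stabilised by stored lipid, was at 14.3, 16.1 and 16.3 FPKM in FF and 14.4, 12.7 and 11.8 FPKM in cKO replicates 1 to 3 (ENSMUSG00000028494, chromosome 4, 86566623 to 86588297, minus strand). Its groups overlapped, since FF replicate 1 and cKO replicate 1 were nearly equal, and the log2 difference was -0.25 (95% interval -0.55 to 0.05, limma adjusted p = 0.362). Without FF replicate 3 the Plin2 difference was -0.22 (limma adjusted p = 0.223).

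The mix of perilipins differed more than their total. Plin1 to Plin5 together reached 64.6 ± 3.70 FPKM in FF against 57.7 ± 4.81 in cKO (SD, n = 3 each), with overlapping groups. The share of Plin5 in that sum was 28.0% to 29.6% in FF and 11.2% to 16.5% in cKO libraries. Plin4 took 16.2% to 22.5% in FF and 25.6% to 29.4% in cKO libraries. Plin3, a cytosolic perilipin that moves onto new droplets, took 24.6% to 31.5% and 34.0% to 36.9%, while its own level had a log2 difference of 0.13 (limma adjusted p = 0.650). The share of Plin2 overlapped between the groups, at 23.7% to 24.3% and 20.9% to 23.8%. Plin1, the perilipin of fat cells, was at no more than 0.0720% in any library. Every cKO library thus held a smaller part of Plin5 and larger parts of Plin4 and Plin3 than any FF library. Shares are parts of a whole, so a lower share of Plin5 by itself raises the others.

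**Figure D3:**
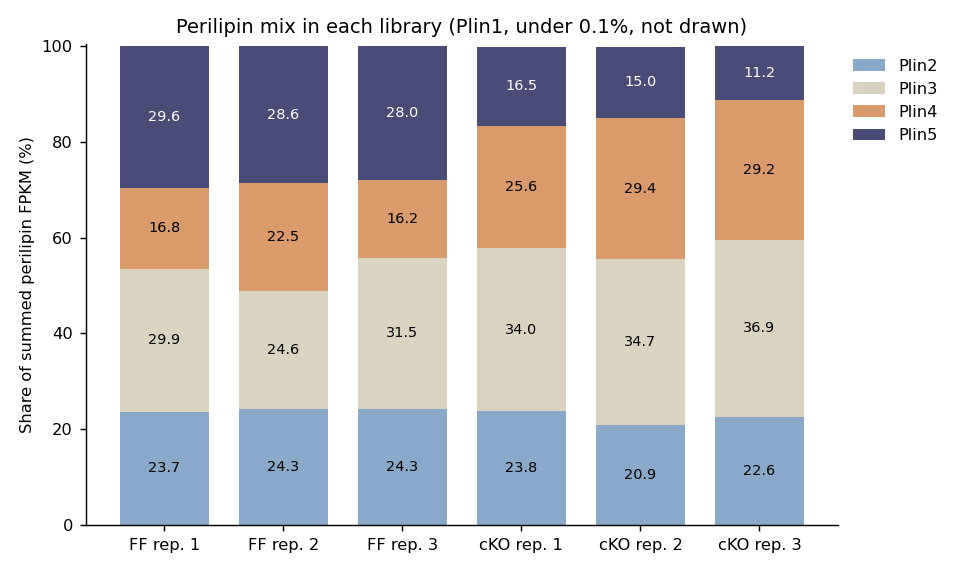
Share of each perilipin (vertical axis, percent of the summed FPKM of Plin1 to Plin5) in each of the 6 libraries, as stacked bars. The Plin5 segment is 28.0% to 29.6% in the FF bars and 11.2% to 16.5% in the cKO bars, and the Plin4 segment is larger in each cKO bar than in any FF bar.

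Promoter sequences are shown for Fitm1 and Plin5, which were lower, for Plin4, which was higher, and for Plin2, which had a smaller difference on the lower side, so that the start regions of genes with these differences can be compared. They come from RefSeq on GRCm38.p6, which held 12 windows for 9 of the 10 genes and none for Cidea, which was therefore not searched. Each window gives the 250 bases before a start, 5′ to 3′ on the strand of the gene. Capitals mark AGGTCA, the half-site of PPAR and related nuclear receptors, and CCAAT, each on either strand (TGACCT and ATTGG when reversed). Plin5 has 2 starts, and the window of the upstream start is shown, since that of the other held none of the motifs searched. The bases just after the downstream start were found near the start of a GENCODE transcript of Plin5, and those after the upstream start were not.
Fitm1 (chr14:55575424-55575673, plus strand): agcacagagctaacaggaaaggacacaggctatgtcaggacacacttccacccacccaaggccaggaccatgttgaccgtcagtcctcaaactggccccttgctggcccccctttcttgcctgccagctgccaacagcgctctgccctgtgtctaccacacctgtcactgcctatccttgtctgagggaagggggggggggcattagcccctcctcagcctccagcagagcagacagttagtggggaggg
Plin5 (chr17:56117549-56117798, minus strand): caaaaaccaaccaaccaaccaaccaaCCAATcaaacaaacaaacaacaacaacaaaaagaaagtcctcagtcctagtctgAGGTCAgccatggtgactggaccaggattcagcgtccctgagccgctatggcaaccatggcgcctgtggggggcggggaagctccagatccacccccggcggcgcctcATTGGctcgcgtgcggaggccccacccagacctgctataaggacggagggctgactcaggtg
Plin4 (chr17:56109783-56110032, minus strand): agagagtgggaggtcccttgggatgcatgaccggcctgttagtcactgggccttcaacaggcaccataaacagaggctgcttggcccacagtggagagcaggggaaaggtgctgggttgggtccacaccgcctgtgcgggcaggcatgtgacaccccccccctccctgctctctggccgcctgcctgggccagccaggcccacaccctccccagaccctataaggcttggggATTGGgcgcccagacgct
Plin2 (chr4:86670060-86670309, minus strand): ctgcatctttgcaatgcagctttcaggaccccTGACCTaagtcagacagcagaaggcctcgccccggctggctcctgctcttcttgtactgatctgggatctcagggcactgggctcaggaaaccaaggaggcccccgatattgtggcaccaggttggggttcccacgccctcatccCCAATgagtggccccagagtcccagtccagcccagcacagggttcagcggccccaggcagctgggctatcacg

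AGGTCA was found in 2 of the 12 windows, in that of the upstream start of Plin5 at 170 to 165 bases before the start and, reversed, in that of Plin2 at 218 to 213 bases. The window of the downstream start of Plin5, the one with the transcript match, did not hold it. It stood in 14% of all 32851 RefSeq windows of this length. The window of Fitm1, whose RNA fell, held none of the motifs searched. AGGTCA was shared by a gene that was lower (Plin5, upstream start only) and a gene whose groups overlapped (Plin2). The DR1 element (AGGTCA, any base, AGGTCA), the estrogen-related receptor site TCAAGGTCA (both of which contain AGGTCA) and the TATA box TATAAA were in 0 of the 12 windows, against 0.0335%, 0.387% and 12.4% of all windows. CCAAT was in the windows of Plin2, Plin4 and Plin5 shown, 3 of 12, against 33.8% of all windows. The E-box CACGTG was in 1 window, upstream of Lipe, against 6.02%. Both strands were searched, and a match or its absence describes these letters in this window only.

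The lipase genes Pnpla2 and Lipe stood higher in cKO hearts on average, and FF replicate 3 was near the cKO libraries for both. Pnpla2, which encodes the lipase ATGL, was at 29.4, 26.5 and 50.4 FPKM in FF and at 40.0, 56.0 and 42.6 FPKM in cKO replicates 1 to 3 (ENSMUSG00000025509, chromosome 7, 141035111 to 141040656, plus strand). FF replicate 3 lay within the cKO range, and the other FF libraries lay below it. The log2 difference was 0.42 (95% interval -0.22 to 1.05, limma adjusted p = 0.468) and 0.69 without FF replicate 3 (95% interval 0.32 to 1.07, limma adjusted p = 0.0399), where the ratio of means was 1.65.

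Lipe, which encodes hormone-sensitive lipase, the enzyme that cleaves diacylglycerol and sterol esters, was at 2.40, 2.59 and 4.59 FPKM in FF and at 5.20, 4.97 and 4.88 FPKM in cKO replicates 1 to 3 (ENSMUSG00000003123, chromosome 7, 25078952 to 25098135, minus strand). All cKO values were above all FF values, with FF replicate 3 just below the lowest. The log2 difference was 0.56 (95% interval 0.07 to 1.05, limma adjusted p = 0.231) and 0.78 without FF replicate 3 (95% interval 0.55 to 1.01, limma adjusted p = 0.0164), where the ratio of means was 2.01. When limma weighted each library by its spread, Pnpla2 and Lipe had log2 differences of 0.73 and 0.74 (limma adjusted p = 0.0044 and 0.0011). That fit called 4300 of all genes and counts a library that stands apart, as FF replicate 3 did, for less. It is therefore not separate from the fit without that library. The thymocyte markers of FF replicate 3 summed to 201 FPKM, and the part of thymocyte RNA in the Pnpla2 and Lipe values of that library was not tested.

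G0s2 encodes the small protein that binds ATGL and blocks it. It was measured at 11.2, 9.48 and 12.5 FPKM in FF and 10.6, 7.61 and 10.05 FPKM in cKO replicates 1 to 3, from 131 to 208 reads per library (ENSMUSG00000009633, chromosome 1, 192954469 to 192955525, minus strand). The groups overlapped, with a log2 difference of -0.21 (95% interval -0.61 to 0.18, limma adjusted p = 0.555), so differences from -0.61 to 0.18 are within the interval. Without FF replicate 3 the G0s2 difference was -0.13 (limma adjusted p = 0.590). G0s2 lies wholly inside the span of Lamb3 on the other strand, which was at 2.11 ± 0.948 and 1.54 ± 0.0988 FPKM (SD, n = 3 each), and no source used here states the strand setting of the counting. Lipe likewise lies inside 4732471J01Rik, an antisense RNA at 0.193 FPKM in FF and 0.211 in cKO, Cidea overlaps 500 bases of B430212C06Rik, at 0.285 and 0.293 FPKM, and Plin4 overlaps 17 bases of Hdgfl2, at 11.9 and 11.6 FPKM.

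Ratios within a library set inhibitor and coat against the lipase without a scaling between libraries. G0s2 to Pnpla2 was 0.382, 0.358 and 0.247 in FF and 0.266, 0.136 and 0.236 in cKO replicates 1 to 3. These groups overlapped only through FF replicate 3, and the means were 0.329 ± 0.0720 and 0.213 ± 0.0681 (SD, n = 3 each). Plin5 to Pnpla2 was 0.609, 0.714 and 0.374 in FF and 0.24997, 0.162 and 0.138 in cKO replicates 1 to 3. Each cKO library had less Plin5 per Pnpla2 than any FF library, FF replicate 3 included, with means of 0.566 ± 0.174 and 0.183 ± 0.0590 (SD, n = 3 each).

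**Figure D4:**
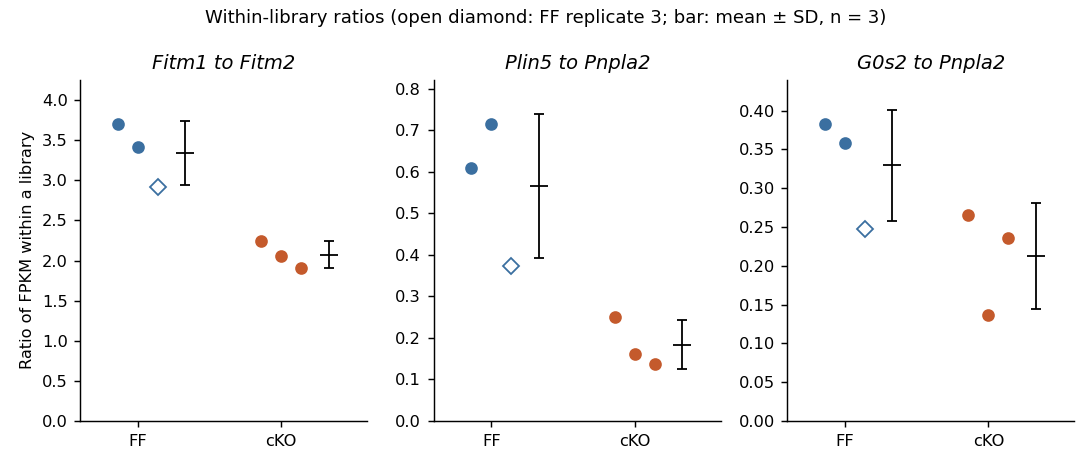
Ratio of FPKM within a library (vertical axes, from 0) for Fitm1 to Fitm2, Plin5 to Pnpla2 and G0s2 to Pnpla2, with each library as a point and the mean ± SD beside it. The groups are separate for the first pair of ratios, and for G0s2 to Pnpla2 they overlap through the FF replicate 3 diamond at 0.247.

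The order of the levels differed between the groups. In FF hearts Fitm1 (41.9 FPKM) and Pnpla2 (35.4 FPKM) were the most abundant of the 10, with overlapping ranges. Cidea (23.9 FPKM), Plin5 (18.5 FPKM) and Plin2 (15.6 FPKM) followed, each with a range separate from the gene above it. Fitm2 (12.8 FPKM), Plin4 (12.0 FPKM) and G0s2 (11.1 FPKM) were not separated beyond their spread, and Fitm2 also overlapped Plin2. Lipe (3.19 FPKM) and Cidec came last. In cKO hearts Pnpla2 (46.2 FPKM) stood alone at the top, followed by Fitm1 (19.1 FPKM), Plin4 (16.2 FPKM) and Plin2 (12.96 FPKM) with separate ranges. Cidea, G0s2, Fitm2 and Plin5, at 9.54, 9.43, 9.25 and 8.31 FPKM, were not separated from the next in that order, and Lipe was at 5.02 FPKM.

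Other genes of the droplet showed no call with all libraries. Of 20 further droplet proteins 19 were matched and 15 tested, and 0 passed in limma over all genes (2 at an unadjusted p under 0.05), with a median log2 difference of 0.10 beside 0.01 for all genes tested. Mettl7a1, a droplet-associated methyltransferase-like protein, averaged 3.66 ± 0.712 FPKM against 7.97 ± 0.647 in cKO (SD, n = 3 each), and Acsl3, the acyl-CoA synthetase of growing droplets, 10.7 ± 5.80 against 20.3 ± 1.77 FPKM. Acsl3 was at 4.12 FPKM in FF replicate 3, the lowest library. With FF replicate 3 left out, these 2 of the 15 passed (limma adjusted p = 0.0164 and 0.0382), where 12% of all genes tested passed in either direction. In that fit 14 of the 15 estimates were above 0, against 9 with all libraries. Their median was then 0.19, beside -0.01 for all genes tested. An unadjusted limma p under 0.05 was reached by 7, and by 33.5% of all genes tested. With all libraries Spg20, which encodes spartin, had a log2 difference of 0.24 (limma adjusted p = 0.311). Hilpda, an inhibitor of ATGL, stood at -0.01 (limma adjusted p = 0.974).

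Of 19 other lipases and their cofactors 15 were tested and 0 passed in limma (4 at an unadjusted p under 0.05), with a median of 0.11. Without FF replicate 3 that median was -0.01, beside -0.01 for all genes tested. Mgll, the monoacylglycerol lipase that completes droplet lipolysis, was at 32.6, 31.7 and 49.8 FPKM in FF and 19.9, 22.4 and 19.4 FPKM in cKO replicates 1 to 3. It was thus lower in each cKO library than in any FF library (limma adjusted p = 0.107). Pnpla2 and Lipe, upstream of it, stood higher on average, with overlapping groups for Pnpla2 and no call with all libraries for either. Gpihbp1, the endothelial anchor of lipoprotein lipase, was at 29.99 ± 1.496 and 17.4 ± 2.67 FPKM (SD, n = 3 each), and Pnpla7, a lysophospholipase, at 2.58 ± 0.421 and 4.603 ± 0.336 FPKM. Without FF replicate 3, Mgll and Gpihbp1 were lower and Pnpla7 higher (limma adjusted p = 0.0185, 0.0294 and 0.0315), 20% of the 15, where 12% of all genes tested passed in either direction. Abhd5, the coactivator of ATGL, had a log2 difference of -0.06 (limma adjusted p = 0.837). The summed level of the 7 endothelial markers was 282 to 404 FPKM in FF and 247 to 299 FPKM in cKO libraries, and its part in the Gpihbp1 difference was not tested.

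Of 20 genes of triacylglycerol synthesis 15 were tested and 0 passed in limma with all libraries (4 at an unadjusted p under 0.05) or without FF replicate 3 (3 at an unadjusted p under 0.05, where 33.5% of all genes tested were). The median was -0.14, with 11 of 15 estimates below 0. Lpin2, a phosphatidate phosphatase, had a log2 difference of -0.47, Gpd1, which makes glycerol 3-phosphate, -0.68, and Gpat3, an acyltransferase, -0.33 (limma adjusted p = 0.155, 0.239 and 0.264).

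Droplet genes are known targets of PPAR receptors, so regulators and other PPAR targets were read beside them. Of 18 regulators tested of 20, 0 passed in limma (7 at an unadjusted p under 0.05), with a median of 0.04. Rxrg, a partner receptor of PPARs, averaged 1.72 ± 0.0773 FPKM against 0.647 ± 0.111 in cKO (SD, n = 3 each). It was the 1 of the 18 that passed when FF replicate 3 was left out (limma adjusted p = 0.0227). That is 5.56% of the 18, where 12% of all genes tested passed in either direction. The coactivator Ppargc1b and the factor Klf15 had log2 differences of 0.46 and 0.78 (limma adjusted p = 0.137 and 0.170). Ppara, the main PPAR of heart muscle, was at 1.91, 1.92 and 1.31 FPKM in FF and 2.61, 2.30 and 3.21 FPKM in cKO replicates 1 to 3, with no overlap and a log2 difference of 0.45 (limma adjusted p = 0.231). Without FF replicate 3 the Ppara difference was 0.34 (limma adjusted p = 0.134).

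Of 28 PPAR target genes outside droplets 26 were tested, and 2 fell and 0 rose in limma with all libraries, where 0.0947% of all genes tested were lower. The median was -0.35, with 21 of 26 estimates below 0. Ech1, an isomerase that acts on unsaturated fatty acids, was among those that fell, with a log2 difference of -1.32 (limma adjusted p = 0.0338). Without FF replicate 3, 11 of 26 were lower and 0 higher, 42.3% of the list, where 6.26% of all genes tested were lower and 5.73% higher. The list was drawn up with results of these libraries known, which makes it no independent evidence of its direction, and it holds no gene of the 10. The differences of Cidea, Fitm1, Plin5, Fitm2, Plin2 and G0s2 also lay below 0, and those of Pnpla2, Lipe and Plin4 above it. A cause shared with the list was not tested.

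**Figure D5:**
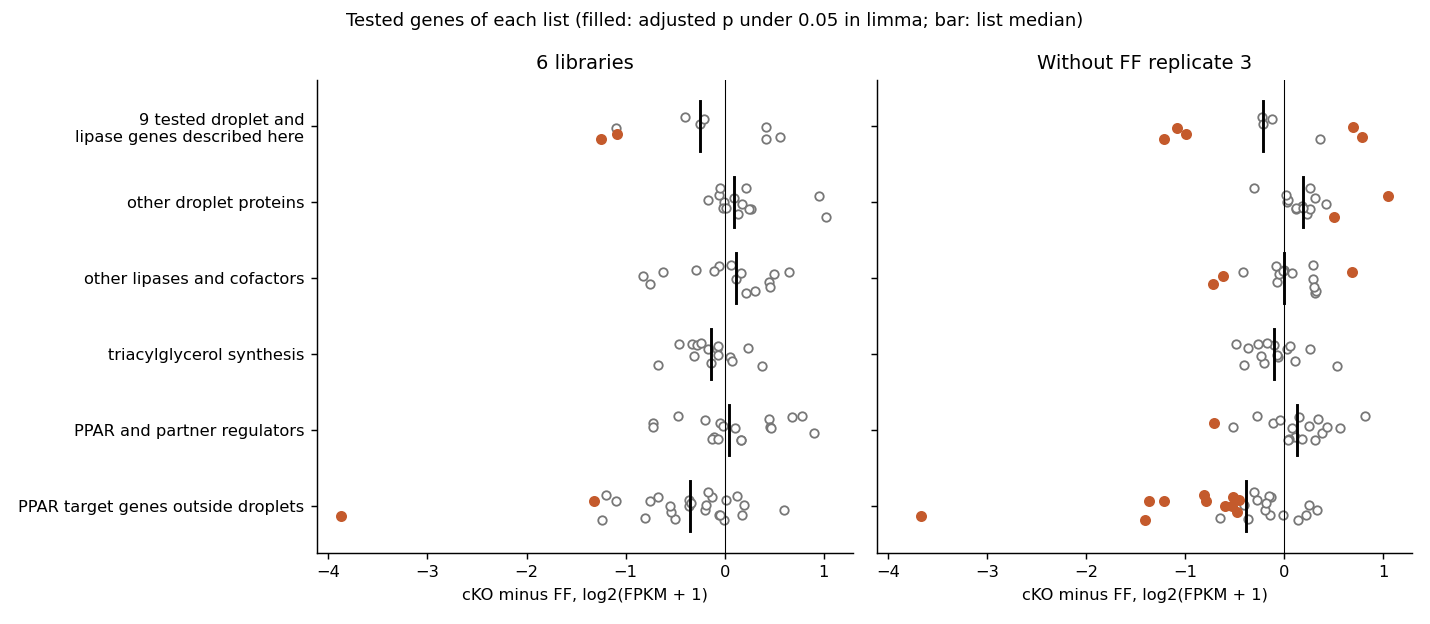
Log2 difference, cKO minus FF, of each tested gene (horizontal axis, log2(FPKM + 1)) by list, with all 6 libraries on the left and without FF replicate 3 on the right. Filled points passed an adjusted p of 0.05 in limma and bars are list medians; 2 of 26 PPAR targets are filled on the left and 11 on the right.

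Markers of cell types that carry droplets were read for whole lists. Of the 14 adipocyte markers 4 were tested and 0 passed in limma (0 at an unadjusted p under 0.05), while Fabp4 was lower with FF replicate 3 left out (limma adjusted p = 0.0405). It was the 1 of the 4 called in that fit, where 12% of all genes tested passed in either direction. The genes that define white fat cells, and Ucp1 of brown fat, were at or near 0 in every library: leptin (Lep) had no reads, Plin1 was at most 0.0436 FPKM, Ucp1 at most 0.0358 FPKM, Cfd at most 0.110 FPKM, Retn at most 0.119 FPKM and Adipoq at most 0.340 FPKM, the last in FF replicate 3. Pck1, Elovl3 and Zic1 were at most 0.0806, 0.0256 and 0.0566 FPKM. Fabp4, which endothelium also expresses, made up most of the list sum of 58.1 to 138 FPKM in FF and 82.5 to 105 FPKM in cKO libraries. The regulators Prdm16 and Ebf2, linked to brown fat, were present at 3.90 ± 0.520 and 1.89 ± 0.401 FPKM in FF and at 3.27 ± 0.491 and 1.36 ± 0.376 in cKO (SD, n = 3 each), and so was Dio2, at 1.1498 ± 0.511 and 1.25 ± 0.218 FPKM. Their log2 differences were -0.20, -0.30 and 0.09, and Car3 was at 0.716 to 1.29 FPKM in FF and 0.283 to 0.579 FPKM in cKO libraries. Cidea, at 8.71 to 24.9 FPKM, was measured in the same libraries.

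The 10 cardiomyocyte markers summed to 8356 to 10187 FPKM in FF and 7980 to 9200 FPKM in cKO libraries, with a median log2 difference of 0.14 and 0 called in limma (4 at an unadjusted p under 0.05). Myl2, Actn2 and Mybpc3 had log2 differences of -0.57, 0.48 and 0.42. The 7 macrophage markers were lower in sum in cKO libraries, 41.7 to 50.1 FPKM against 55.4 to 114 FPKM, with 0 called (4 at an unadjusted p under 0.05). Macrophages also carry droplets and Plin2, and the part of these markers in the Plin2 and Mgll values was not tested. The 7 fibroblast markers summed to 411 to 582 FPKM in FF and 347 to 441 FPKM in cKO libraries, and the 7 erythroid markers to 668 to 1467 and 759 to 946 FPKM, with 0 called in limma in each list (3 and 0 at an unadjusted p under 0.05). With FF replicate 3 left out, limma called 0 of 10 cardiomyocyte, 1 of 7 endothelial and 1 of 7 macrophage markers tested. It also called 2 of 7 fibroblast and 1 of 3 erythroid markers tested, where 12% of all genes tested passed in either direction. Egfl7 (-0.48), Lyz2 (-0.51) and Dcn (-0.66) were lower in that fit, and Tcf21 (0.60) and Alas2 (0.64) were higher.

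The tested genes whose pattern over the 6 libraries was most like that of Cidea were Nt5c, Cdr2, Slc25a25, Pogk and Tmem107, with Pearson's r from 0.992 to 0.997 on log2(FPKM + 1). Those most like Fitm1 were Basp1, Vwa1, Rhoc, Wdr70 and Mcm3, with r from 0.996 to 0.998. The lists shared no gene. The libraries fall into 2 groups, so such an r mostly follows a difference between the groups, and among 12678 genes many reach a high value over 6 points. No other droplet or lipase gene was among these 10, though Cidea and Fitm1 correlated with each other at r = 0.981 over the same libraries.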

How the data were processed

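The authors deposited FPKM values for 56748 genes in 6 libraries, 1 column per sample, per the file headers. Per the submitters' processing notes the tools were TopHat2 2.0.13, featureCounts of Subread, edgeR and FastQC; those notes list GRCm39, mm10 and GRCh38 as builds without saying what each served for. No source used here states the annotation release or the strand setting. Reads were recovered from FPKM times gene length, divided by the value of 1 read in each library (100% of values under 200 reads came within 0.1 of a whole number).

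Differences on log2(FPKM + 1) came from limma 3.58.1 (R 4.3.3), with group as the only term, intensity trend, genes with a mean of at least 1 FPKM, and Benjamini-Hochberg adjustment at 0.05. Log2 differences are on that scale and are too small for genes of low level. The scripts were tested on simulated data. Alternatives were other pseudocounts, minimums, scalings, variance priors, library weights, a replicate block, and leaving out each library. The 10 genes and all lists were chosen with earlier results of these data known. Named genes are the 10, called members of each list (or the 3 with the smallest p), white and brown adipocyte markers in full and 5 pattern neighbours of Cidea and Fitm1. The values of 1 called gene of a list are not reported here. Hilpda, Abhd5, Ppara, Plin3 and Cideb were added after their values were seen. Spart was matched as Spg20 through RefSeq synonyms, and Ldaf1 was not matched.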

Additional observations from a re-analysis of the deposited data

How the results depend on the processing

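Over 16 alternatives (15 for Lipe) no direction of the 9 genes turned. Cidea ran from -1.34 to -1.19, Fitm1 from -1.16 to -0.96, Plin5 from -1.23 to -0.89, Lipe from 0.43 to 0.78 and Pnpla2 from 0.24 to 0.73. Of all genes, 21 passed, against 14 and 11 with pseudocounts of 0.5 and 0.1, 0 with no minimum (3210 at an unadjusted p under 0.05 in limma), 53 with a minimum of 5 FPKM, 15 with median-ratio scaling, 59 with quantile normalization, 34 with rescaling outside mitochondrial and haemoglobin genes, 4300 with library weights and 13 with robust priors. Leaving out a library gave 0 to 1520. Of the 9 genes described, 2 passed, against 1 with either pseudocount, median-ratio scaling or robust priors, 0 with no minimum, and 6 with library weights, and 0 to 5 when a library was left out. Library weights called 7 of 15 other droplet proteins, 4 of 15 other lipases, 3 of 15 synthesis genes, 9 of 18 regulators and 16 of 26 PPAR targets. Those counts stand beside 4300 of 12678 for all genes in that fit, and beside 0, 0, 0, 0 and 2 in the main fit. PPAR targets were 0 with no minimum and 5 with a minimum of 5 FPKM. Leaving out a library gave 0 to 2 other droplet proteins, 0 to 3 other lipases, 0 to 1 regulators and 0 to 11 PPAR targets. With the replicate block 2 of all genes passed, 0 of the 9 and 0 PPAR targets. The labels do not say whether the numbers pair the samples. Deviations of same-numbered libraries correlated at 0.38, -0.24 and 0.24, and not every library correlated best with its own number. These are deviations from means of 3 libraries, with FF replicate 3 standing apart, so they cannot decide whether the numbers pair the samples. When a library was left out, the log2 difference of the G0s2 to Pnpla2 ratio ran from -0.86 to -0.37, around -0.66 with all libraries. That of Plin5 to Pnpla2 ran from -1.89 to -1.43, and that of Fitm1 to Fitm2 from -0.78 to -0.61. The Plin5 share differed by -15.6 to -13.0 percentage points, and the Plin2 share by -2.31 to -0.87. Reads per gene limit Cidec, and to a lesser degree G0s2. The cause of these changes was not tested.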
